A study of Mus musculus with 6 samples.

Results

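The clustered replication histone genes were examined in 6 mouse melanomas. They were chosen by name, as the 67 protein-coding genes whose GENCODE symbol begins with Hist1h, Hist2h, Hist3h or Hist4h, out of 53801 gene identifiers in the count files. Another 3 genes with such symbols are pseudogenes and were left out. The members comprised 6 genes for H1, 18 for H2A, 18 for H2B, 12 for H3 and 13 for H4. By cluster, 54 lay in cluster 1 on chromosome 13, 10 in cluster 2 on chromosome 3, 2 in cluster 3 on chromosome 11 and 1 in cluster 4 on chromosome 6 (GRCm38).

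The tumours arose from the mouse melanoma line B16-F10, injected under the flank skin of male C57BL/6J mice aged 10 to 12 weeks, which the labels give as wild type. In the SEVO group (n = 3) cells were primed ahead of injection with 2% sevoflurane, in a chamber that was flushed with the gas for 30 min and kept closed for another 2 h. The CTRL group (n = 3) received unprimed cells of the same line, and the comparison asked whether a trace of the priming was left in the grown tumour. The methods give injection within 2 h of priming, whereas a figure legend gives 24 h.

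RNA came from small tissue pieces, so each library mixed melanoma cells with the cells of the host, and fewer cells of a type cannot be told apart from less RNA per cell. The labels name the cell type as Monocytes but the tissue as Melanoma. The melanocyte genes Dct (206 to 619 reads per tumour), Pmel (134 to 302) and Tyrp1 (115 to 361) were counted in every tumour, while the monocyte genes Cd14 (0 to 2), Lyz2 (0 to 4) and Itgam (0 to 4) were at or near 0. The macrophage receptor gene Csf1r had 88 to 257 reads, Ptprc 2 to 26 and Cd68 7 to 17. Among the less counted melanocyte genes, Mlana had 4 to 32 reads per tumour and Sox10 10 to 30. The libraries held 723431 to 1348676 reads on genes, which were 2.06% to 4.61% of the uniquely aligned reads, and between 1.31% and 49.0% of them lay on Gm10800 and Gm10801, both predicted genes. Levels below are CPM, read counts on a common library size after TMM scaling in edgeR, or CPM per kb of exon where genes of different length are set side by side.

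Nucleosomes wrap DNA around an octamer of the core histones H2A, H2B, H3 and H4, and the linker histone H1 binds where the DNA enters and leaves. Dividing cells make most of these proteins in S phase from many near-identical, mostly intronless genes in clusters, whose mRNAs end in a stem-loop bound by SLBP instead of a poly(A) tail. When replication stops, these mRNAs are degraded, so their abundance is widely used as a sign of S phase. Libraries that select poly(A) RNA capture them poorly, and the protocol names total RNA and a standard Illumina preparation without saying whether poly(A) RNA was selected.

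The shared sequence features are shown first, since they set what a short read can tell about any member. Of the 67 members, 62 had a single exon, and the annotated exon length was 539 bases in the median. The 13 H4 genes encode a single protein of 103 residues, the 12 H3 genes encode 3 proteins, the 18 H2A genes 9, the 18 H2B genes 12 and the 6 H1 genes 6. The stem-loop was searched on the coding strand over each whole transcript as the letters GG, 2 free bases, CTTTTCAG, 2 free bases and CC. Of the members, 35 held it. It began 25 to 59 bases after the stop codon, with a median of 32. Of the 32 members without a match, 15 have fewer than 30 annotated bases after the stop codon of their longest coding transcript. Little sequence was annotated there for a match. The others have 37 (Hist2h3b) to 2192 bases (Hist2h2be) there. A stem-loop with another core would be missed, so no match does not mean that a member lacks one. Among the matches there were 3 versions, shown with the loop and its neighbours in capitals:
Hist1h1e (chr13:23621782-23621797, minus strand): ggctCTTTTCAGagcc
Hist1h4f (chr13:23551291-23551306, minus strand): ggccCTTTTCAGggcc
Hist1h4b (chr13:23757366-23757381, plus strand): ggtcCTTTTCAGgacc
The first version was found in 26 members of types H1, H2A, H2B and H3, the second in 7 H4 genes and the third in 2 H4 genes. In each of the 3 the outer bases on the left can pair with those on the right.

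Promoters in RefSeq (GRCm38, 250 bases before to 50 after the start) were matched by symbol for 61 members. The TATA motif TATAAA was found on either strand in 57.4% of them against 13.6% of all 32851 mouse promoters. The motif CCAAT was found in 85.2% against 37.4%, and the octamer ATTTGCAT, the binding motif of Oct factors, in 21.3% against 1.74%. CCAAT divided the types: all 6 H1, 17 H2A, 16 H2B and 10 H3 promoters held it, and 3 of 12 H4 promoters did. The octamer was found in 7 H2A and 6 H2B promoters and in 0 of the others. The 150 bases before the start of 3 members that recur below are printed with any of the 3 motifs, on either strand, in capitals.
Hist1h1e: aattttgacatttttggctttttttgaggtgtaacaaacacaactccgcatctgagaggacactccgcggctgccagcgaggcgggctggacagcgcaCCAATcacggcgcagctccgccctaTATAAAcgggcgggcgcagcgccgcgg
Hist1h2bb: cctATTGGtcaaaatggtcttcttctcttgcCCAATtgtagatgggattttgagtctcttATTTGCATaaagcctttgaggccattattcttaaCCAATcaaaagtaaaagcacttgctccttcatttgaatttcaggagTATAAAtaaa
Hist1h4f: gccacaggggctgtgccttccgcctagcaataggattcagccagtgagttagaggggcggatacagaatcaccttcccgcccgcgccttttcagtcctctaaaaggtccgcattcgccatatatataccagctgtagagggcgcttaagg
These lie at chr13:23622559-23622708 (minus strand) for Hist1h1e, chr13:23746584-23746733 (plus strand) for Hist1h2bb and chr13:23551669-23551818 (minus strand) for Hist1h4f. Hist1h2bb, an H2B gene, holds all 3 motifs, Hist1h1e holds CCAAT and TATAAA, and the stretch of Hist1h4f holds none of them.

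Few reads were counted on the members, and the limit that strand sets on all member counts is given below. Together they took 4774 reads over the 6 tumours, between 398 and 1353 per tumour, or 0.0453% to 0.152% of the reads on genes. At least 1 read was found on 50 members, 17 had none, and 16 had 1 to 10 reads. Only 9 members had at least 10 reads in every tumour. Summed over all members and their exons, the level was 11.2, 17.2 and 12.7 CPM per kb in CTRL tumours 1, 2 and 3 and 6.90, 12.4 and 22.2 in SEVO tumours 1, 2 and 3. For 1460 odorant and vomeronasal receptor genes, used mainly by sensory neurons, the same sum gave 1.57, 0.0946, 0.675, 0.212, 0.225 and 0.432 CPM per kb in that order of tumours. As a sum, the members therefore stood 7.11 to 182 times above these receptor genes, with the narrowest margin in CTRL tumour 1. Taken singly, 44 of the 67 members exceeded the pooled receptor density, and 39 exceeded the 95th percentile of single receptor genes.

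The reads were spread unevenly along the clusters. Within cluster 1, members parted by more than 100000 bases were put into separate blocks, which gave 4. The third block (chr13:23531050-23764406), with 29 members, held 4004 reads, or 83.9% of all histone reads. The first block (chr13:21715763-21837530), with 18 members, held 12 reads in all, and 12 of its members had none. The second block (chr13:22035164-22043676), with 5 members, held 103 reads. The fourth (chr13:23933773-23934851) holds Hist1h2ba and Hist1h2aa, known as testis histones, and had 0. In cluster 2, 10 members held 531 reads, cluster 3 had 10 reads on 2 members, and Hist4h4 alone had 114.

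Sequence uniqueness differed along the same axis. The share of a member's 50-base stretches that occur at a single annotated locus had a median of 13.9% in the first block and 59.6% in the third. The 15 members under 20% had 13 reads in all, and 12 of them had 0. Uniqueness did not fix the count by itself, since Hist1h1b (100%) had 1 read and Hist1h1a (100%) had 6, while Hist2h3b (20.3%) had 233. Over the 67 members, Spearman's rho between reads per kb and this share was 0.37, given as a description because near-identical members share sequence and all values come from the same 6 libraries. Since the authors kept uniquely aligned reads, a count of 0 in such a member cannot be told apart from expression that could not be placed. Nor can it be told apart from expression counted on the other strand, as set out below.

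**Figure D1:**
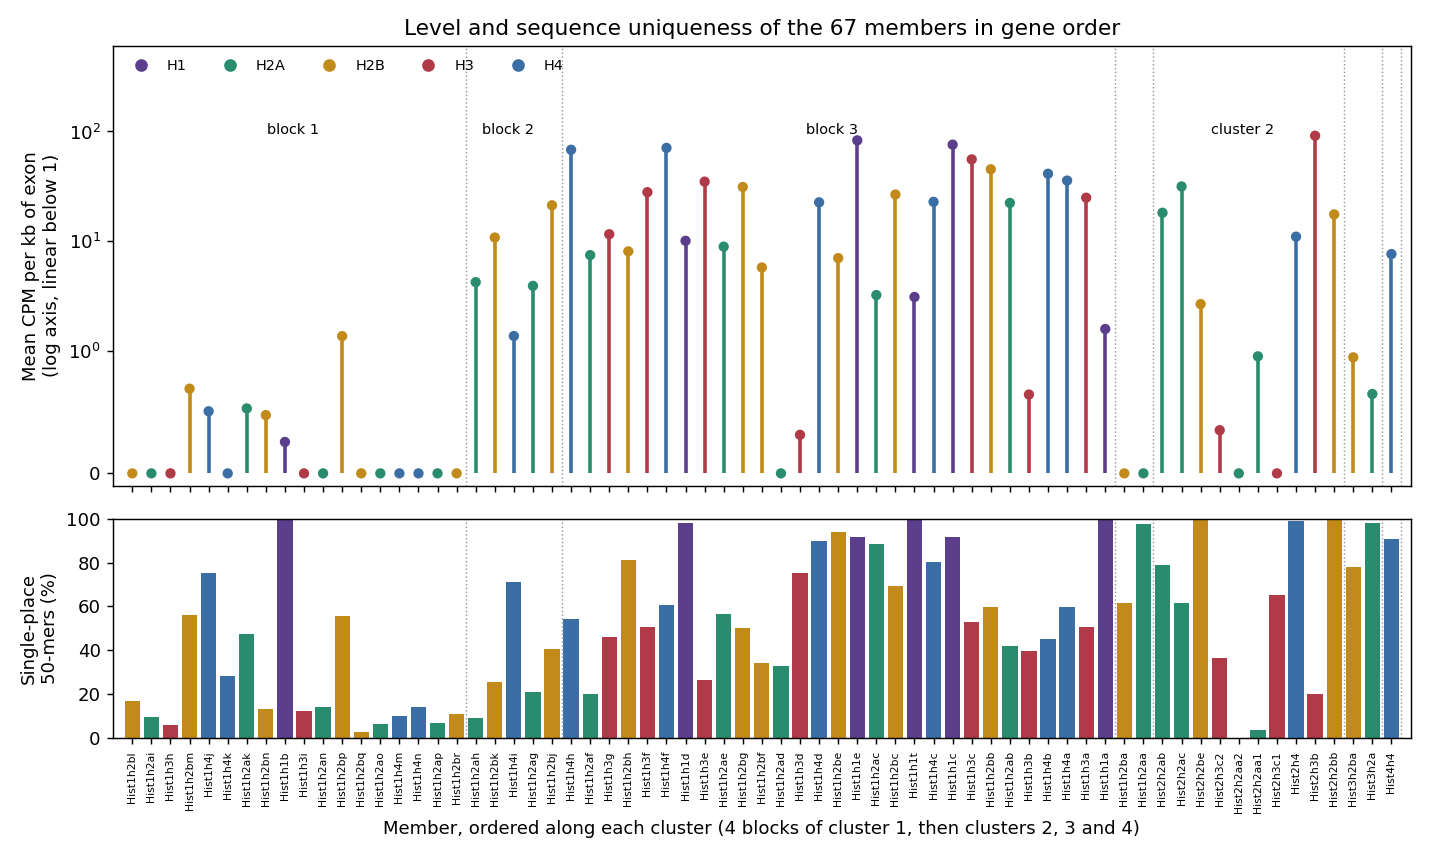
Mean level (upper panel, CPM per kb of exon, log axis that is linear below 1) and share of single-place 50-base stretches (lower panel, percent) of the 67 members in gene order, coloured by histone type, with dotted lines between blocks and clusters. The 18 members of the first block stand near 0 with 12 reads in all, while most of the 29 members of the third block stand above 1 CPM per kb.

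Genes annotated on the other strand of the same exons carried far more reads. In GENCODE, 22 genes on the opposite strand share exon bases with members, and 17 of them are predicted short genes of 129 to 144 bases, typed as miRNA genes, each lying wholly inside the exon of an H2A member. The 17 H2A members had 260 reads in all, against 53451 on the 17 predicted genes inside them, 206 times as many on 2352 bases. In every tumour the predicted genes led, by 120, 196 and 168 times in CTRL tumours 1, 2 and 3 and by 391, 275 and 164 times in SEVO tumours 1, 2 and 3.

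These 17 genes sit at about the same place in each H2A coding sequence, and 99 bases are common to all, coding positions 246 to 344 of the member. They are printed in the sense of the predicted gene, which is the reverse complement of the H2A coding strand, because they show how alike the copies are. Capitals mark bases that differ from the commonest version, shared by 11 of the 17 genes and printed for Gm44350.
Gm44350 in Hist1h2ac: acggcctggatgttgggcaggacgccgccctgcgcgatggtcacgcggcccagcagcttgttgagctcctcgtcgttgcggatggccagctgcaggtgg
Gm44313 in Hist3h2a: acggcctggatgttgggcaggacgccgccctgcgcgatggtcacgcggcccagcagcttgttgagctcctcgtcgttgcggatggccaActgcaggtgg
Gm44297 in Hist1h2af: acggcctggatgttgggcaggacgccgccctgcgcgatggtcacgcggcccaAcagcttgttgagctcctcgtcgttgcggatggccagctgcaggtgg
Gm44492 in Hist2h2ac: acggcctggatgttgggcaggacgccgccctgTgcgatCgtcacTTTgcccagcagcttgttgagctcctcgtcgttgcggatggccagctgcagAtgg
Gm47311 in Hist2h2aa2: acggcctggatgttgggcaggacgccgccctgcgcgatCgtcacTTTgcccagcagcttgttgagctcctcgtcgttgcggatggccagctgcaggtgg
The windows lie at chr13:23683574-23683672 (plus strand) for Gm44350, chr11:58954983-58955081 (minus) for Gm44313, chr13:23534156-23534254 (minus) for Gm44297, chr3:96220501-96220599 (plus) for Gm44492 and chr3:96239907-96240005 (plus) for Gm47311. Gm44313 and Gm44297 differ from the commonest version at 1 base each, Gm44492 at 6, and Gm47311 at 4, as does its identical copy Gm47313.

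Gm44313, inside Hist3h2a, had the most reads of the 17. It was counted 1998, 4737 and 3334 times in CTRL tumours 1, 2 and 3 and 5580, 5296 and 3675 times in SEVO tumours 1, 2 and 3, whereas Hist3h2a itself had 7 reads in all. CTRL tumour 1 was the lowest and the groups overlapped. On its own strand Hist3h2a shares 708 exon bases with Trim17, and reads there cannot be assigned to either gene by HTSeq. Gm44350, inside Hist1h2ac, had 736, 1381 and 962 reads in CTRL and 1272, 1417 and 1046 in SEVO, against 42 reads in all on Hist1h2ac. Gm44492, inside Hist2h2ac, had 488, 1219 and 915 reads in CTRL and 1141, 1304 and 1016 in SEVO. Its host Hist2h2ac had 8, 21 and 20 reads in CTRL and 9, 13 and 14 in SEVO.

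Identical copies were counted very differently. Of the 17 genes, 8 are the same over all 138 bases, and among these Gm44350 had 6814 reads, Gm44484 5667, Gm44394 2622, Gm44486 2454, Gm44367 61, Gm44359 14 and both Gm19658 and Gm44466 none. Gm44367, Gm19658 and Gm44466 lie in the first block of cluster 1, where the H2A members around them had 0 reads. Gm47311 and Gm47313, inside the duplicated genes Hist2h2aa2 and Hist2h2aa1, had 0 reads. A read can reach past a short gene into the flanks of its host, so identity over these bases alone does not say where a read could be placed.

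In cluster 2 the antisense gene Gm20628 covers the H3 gene Hist2h3b and the H2B gene Hist2h2bb. It had 8227, 20448 and 13640 reads in CTRL tumours 1, 2 and 3 and 21236, 22404 and 16466 in SEVO tumours 1, 2 and 3. CTRL tumour 1 was again the lowest. Per kb of exon Gm20628 had 66.7 times the density of Hist2h3b over the 6 tumours. Of its 3215 exon bases, 488 are shared with Hist2h3b and 381 with Hist2h2bb. How many of its reads lie opposite these members cannot be read from the counts. The opposite case was 4930558J22Rik, which shares 223 bases with Hist1h4b and had a lower density than that H4 gene, 0.385 times.

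**Figure D2:**
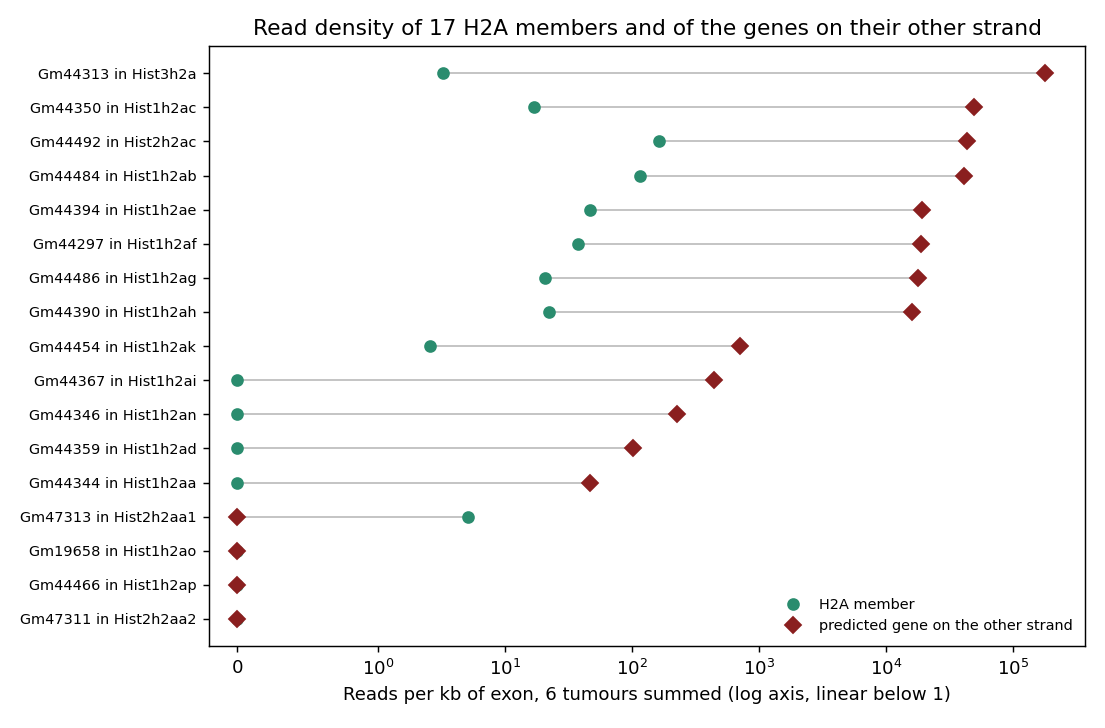
Reads per kb of exon, summed over the 6 tumours (log axis that is linear below 1), of 17 H2A members (circles) and of the predicted gene on the other strand inside each (diamonds), joined by a line. In 13 of 17 the diamond stands to the right of the circle, and the remaining 4 predicted genes had 0 reads.

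A read on any of the 17 short genes also overlaps the H2A exon around it, and HTSeq gives such a read to the short gene only when it uses strand. Which strand setting was given to HTSeq, and which strand the library preparation marks, are not given in the sources used here. Whether the reads on the other strand came from the histone mRNAs was not tested. The member values above and below are those counted on the annotated strand of the members. They are counts on that strand and cannot be read as histone mRNA abundance without that information. The lists of other genes come from the same counts, so the same limit holds for them.

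The summed level of the members did not separate SEVO from CTRL tumours. It was 742, 1141 and 841 CPM in CTRL tumours 1, 2 and 3 and 458, 825 and 1476 CPM in SEVO tumours 1, 2 and 3. SEVO tumour 1 was the lowest of the 6 and SEVO tumour 3 the highest, so the groups overlapped. The means were 908 ± 208 CPM in CTRL and 919 ± 515 CPM in SEVO (SD, n = 3 each), a ratio of 1.01. The spread inside SEVO was 3.22-fold, against 1.54-fold inside CTRL. The linker histone genes Hist1h1c and Hist1h1e held 30.6% of the histone reads. Without them the sums were 652 ± 110 CPM in CTRL and 618 ± 335 CPM in SEVO (SD, n = 3 each).

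SEVO tumour 1 was the lowest of the 6 in every type but H3. The H1 genes summed to 242, 472 and 328 CPM in CTRL and 146, 354 and 605 CPM in SEVO. The H2A genes, the least counted type, summed to 58.3, 76.5 and 56.2 CPM in CTRL and 42.6, 49.4 and 66.5 CPM in SEVO. In H2B the CTRL tumours lay close together at 152, 166 and 168 CPM, and the SEVO tumours lay on both sides of them at 69.0, 119 and 237 CPM. The H3 genes summed to 112, 228 and 131 CPM in CTRL and 132, 181 and 205 CPM in SEVO. In H4 the CTRL tumours had 178, 199 and 158 CPM and the SEVO tumours 67.8, 121 and 362 CPM, the widest spread of a type, 5.34-fold inside SEVO. The ratio of H3 to H4, whose proteins enter the nucleosome together, was 0.866 ± 0.262 in CTRL and 1.34 ± 0.705 in SEVO (SD, n = 3 each). It was highest in SEVO tumour 1, at 1.95, and lowest in SEVO tumour 3, at 0.566, so the groups overlapped.

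**Figure D3:**
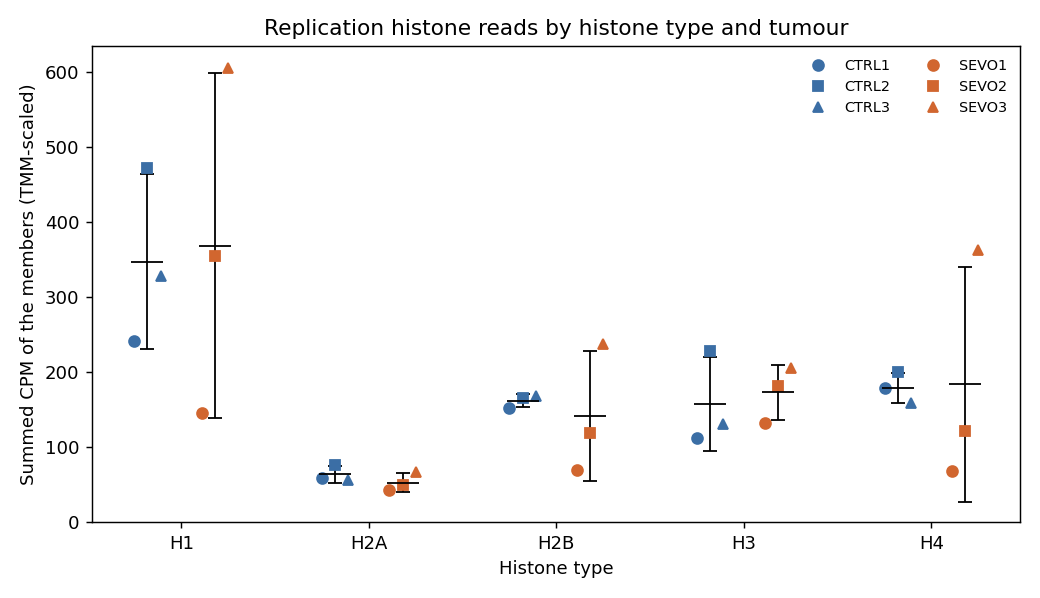
Summed CPM of the members of each histone type (vertical axis, from 0) in every tumour, with the mean (horizontal line) and SD (bars) of the 3 CTRL and the 3 SEVO tumours. SEVO tumour 3 lies above the other SEVO tumours in every type and SEVO tumour 1 below them, so the SEVO bars span the CTRL tumours in H1, H2B and H4.

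The 7 melanocyte markers, all of which were tested, summed to 1206, 1279 and 1212 CPM in CTRL and 592, 693 and 1642 CPM in SEVO, with SEVO tumour 1 lowest and SEVO tumour 3 highest as for the histones. The 9 monocyte and macrophage markers summed to 210 to 280 CPM in CTRL and 233 to 324 CPM in SEVO, and Csf1r held 1137 of their reads. The other 8 had 5 (Cd14) to 69 reads (Cd68) over the 6 tumours, and Ptprc had 26, 2 and 20 reads in CTRL and 5, 4 and 9 in SEVO. The 5 T and NK markers ranged from 7.53 to 80.1 CPM, the 3 endothelial markers from 7.51 to 81.3 CPM and the 4 erythroid markers from 20.7 to 128 CPM over the 6 tumours. The part of cell composition in the histone values was not tested.

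Of the 67 members, 22 had enough reads for the filter of edgeR and were tested, 3 for H1, 1 for H2A, 5 for H2B, 5 for H3 and 8 for H4. None had a p under 0.05 in edgeR, before or after adjustment, against 0.0% of all 7561 tested genes at an adjusted p under 0.05 and 330 genes at an unadjusted p under 0.05. With the Wald test of DESeq2, 0 of 50 members had a p under 0.05, against 0.625% of all 42422 genes tested. At the study's thresholds, a p under 0.02 and a change of at least 1.5-fold, 0 members were higher in SEVO, where 0.106% of all tested genes were, and 0 were lower, where 0.939% were. In 0 of the 22 did all SEVO tumours lie above all CTRL tumours, against 4.17% of all tested genes, and in 0 did they all lie below, against 4.39%. With 22 members, a share near these backgrounds would amount to 0 or 1 member.

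A pair of sparsely counted H2A members outside the test had groups that did not overlap. Hist1h2ae had 5, 5 and 2 reads in CTRL and 7, 8 and 6 in SEVO, and in CPM each SEVO value exceeded each CTRL value. Hist1h2af had 2, 7 and 3 reads in CTRL and 1, 2 and 0 in SEVO, and in CPM each SEVO value was below each CTRL value. Of the 42423 genes with at least 1 read, 1.05% lay wholly above and 4.54% wholly below, and 1 of 50 members in each direction is near those shares.

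The log2 fold changes of SEVO over CTRL ran from -0.65 to 0.48, with 11 above and 11 below 0. Their median was 0.00, beside -0.02 for all tested genes. Standard errors were 0.37 to 0.75, and 3 members exceeded their own standard error. The level was highest in SEVO tumour 3 for 15 of the 22 members and lowest in SEVO tumour 1 for 17. Inside SEVO, the highest tumour was 4.39 times the lowest in the median member.

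Among the linker histones, Hist1h1e (chr13:23620629-23622558, minus strand) had the highest H1 level per kb, 83.0 CPM per kb. It shares 496 exon bases on the same strand with Hist1h2be, and reads there cannot be assigned to either gene by HTSeq. Hist1h1e was counted at 103, 218 and 142 CPM in CTRL and 74.7, 182 and 240 CPM in SEVO. The CTRL tumours lay inside the SEVO range, and the log2 fold change was 0.10 (SE 0.44, adjusted p = 0.93).

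Hist1h1c had 64.3, 146 and 94.1 CPM in CTRL and 46.0, 114 and 246 CPM in SEVO. The log2 fold change of 0.42 (SE 0.51, adjusted p = 0.79) was among the 3 largest above 0, but SEVO tumour 1 was the lowest of the 6, and without SEVO tumour 3 the value was -0.30. Hist1h1d, another somatic H1, had 72.8, 100 and 88.4 CPM in CTRL and 23.0, 52.6 and 113 CPM in SEVO, a log2 fold change of -0.47 (SE 0.46, adjusted p = 0.77). Without SEVO tumour 3 it was -1.15 at an unadjusted p of 0.018 in edgeR and an adjusted p of 0.34, the only member past the study's thresholds when a tumour was left out. In that fit 5.42% of all tested genes passed downwards, so 1 of 23 members did not exceed the background. The remaining H1 genes had few reads: the testis gene Hist1h1t 15, Hist1h1a 6 and Hist1h1b 1.

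Of the H2A genes only Hist2h2ac passed the filter. It had 9.71, 26.3 and 23.0 CPM in CTRL and 10.3, 13.9 and 15.3 CPM in SEVO. CTRL tumour 1 was the lowest and the other CTRL tumours the highest, and the log2 fold change was -0.57 (SE 0.56, adjusted p = 0.77). Hist1h2ab, with 4 to 13 reads per tumour, and Hist2h2ab, with 5 to 10, were next in level per kb and were not tested. Their groups overlapped. Of the 18 H2A genes, 7 had 0 reads.

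Hist1h2bb was the H2B gene with the highest level per kb and the lowest p of any member. It had 25.5, 31.4 and 27.5 CPM in CTRL and 8.05, 13.9 and 31.6 CPM in SEVO. SEVO tumours 1 and 2 lay below all CTRL tumours, while SEVO tumour 3 lay above them. The log2 fold change was -0.65 (SE 0.52, unadjusted p = 0.24 and adjusted p = 0.75 in edgeR). Hist1h2bh had 10.9, 16.3 and 21.8 CPM in CTRL and 3.45, 11.8 and 17.4 CPM in SEVO, with a log2 fold change of -0.58 (SE 0.65). Hist1h2bg, with 14 to 20 reads in CTRL and 7 to 32 in SEVO, and Hist1h2bc, at 26.4 to 38.9 CPM in CTRL and 20.7 to 39.3 CPM in SEVO, gave -0.10 and -0.24. In cluster 2, Hist2h2be had 2 to 11 reads per tumour and Hist2h2bb 3 to 10, and neither was tested.

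Hist2h3b had the highest level per kb of all members, 91.5 CPM per kb, and is the gene under the antisense gene Gm20628. It had 27.9, 59.0 and 32.1 CPM in CTRL and 44.8, 46.1 and 57.8 CPM in SEVO. The SEVO tumours lay between the CTRL values, and the log2 fold change was 0.32 (SE 0.37, adjusted p = 0.79). Hist1h3c had 23.1, 53.9 and 28.7 CPM in CTRL and 19.5, 49.3 and 36.0 CPM in SEVO, a log2 fold change of -0.01 (SE 0.46). Hist1h3e had 18.2, 36.4 and 29.8 CPM in CTRL and 17.2, 33.3 and 40.4 CPM in SEVO, with 0.11 (SE 0.45). The H3 genes were less scattered inside SEVO than the H4 genes, 1.55-fold against 5.34-fold for the sums.

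The H4 genes gave both the largest value above 0 and the widest errors. Hist1h4c had 9.71, 20.1 and 17.2 CPM in CTRL and 5.75, 7.51 and 52.3 CPM in SEVO. Its log2 fold change of 0.48 (SE 0.75, adjusted p = 0.83) rested on SEVO tumour 3, without which it was -1.17. Hist1h4h had 21, 34 and 13 reads in CTRL and 9, 28 and 63 in SEVO, with a log2 fold change of 0.40 (SE 0.59) and, without SEVO tumour 3, -0.40.

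Hist1h4f, the H4 gene with the highest level per kb, had 26.7, 36.4 and 32.1 CPM in CTRL and 9.20, 19.3 and 42.5 CPM in SEVO. Again SEVO tumours 1 and 2 lay below and SEVO tumour 3 above all CTRL tumours, and the log2 fold change was -0.42 (SE 0.51). Hist1h4b gave -0.37 (SE 0.53) with 15.1 to 24.3 CPM in CTRL and 10.3 to 17.4 CPM in SEVO. Hist2h4 in cluster 2 had 14, 16 and 13 reads in CTRL and 8, 8 and 35 in SEVO, a log2 fold change of 0.11 (SE 0.63). Hist4h4, the only gene of cluster 4, had 31.6, 18.8 and 24.1 CPM in CTRL and 11.5, 7.51 and 38.2 CPM in SEVO, with -0.38 (SE 0.59). In both, as in Hist1h4f, SEVO tumours 1 and 2 lay below all CTRL tumours and SEVO tumour 3 above them.

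**Figure D4:**
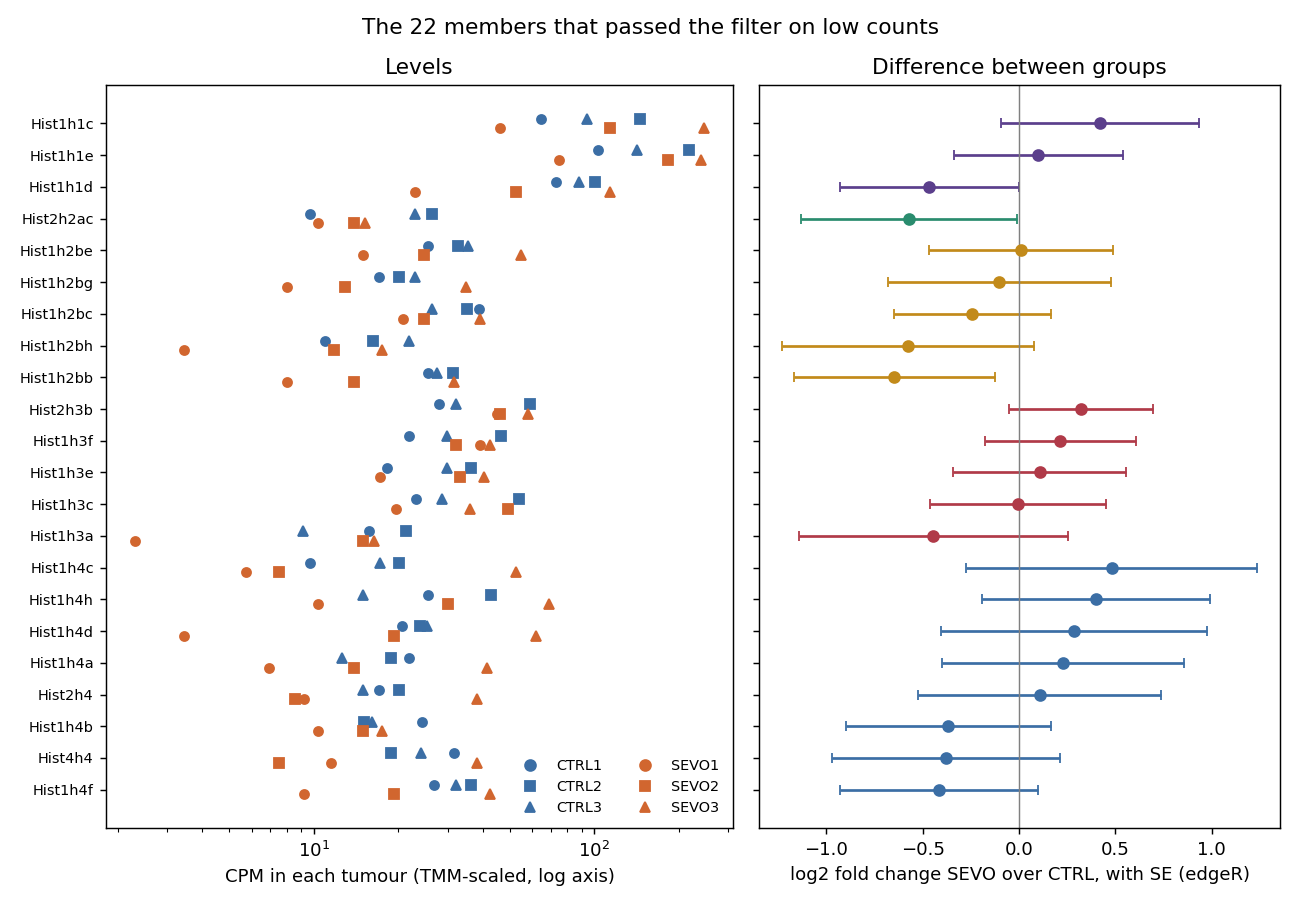
CPM in each tumour (left, log axis) and edgeR's log2 fold change of SEVO over CTRL with its SE (right) for the 22 tested members, grouped by histone type. SEVO tumour 3 is the highest point for 15 members and SEVO tumour 1 the lowest for 17, and the fold changes run from -0.65 to 0.48.

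On the other strand, 12 of the 22 opposite genes were tested. Their log2 fold changes ran from -1.05 (Gm44454) to 0.48 (Gm15444), with a median of 0.27 and 10 above 0, and 0 had a p under 0.05 in edgeR (lowest adjusted p 0.74) or in DESeq2. The 17 short genes together reached 9250 ± 3866 CPM in CTRL and 11250 ± 1513 CPM in SEVO (SD, n = 3 each), and the groups overlapped. By tumour, 9 of the 12 were lowest in CTRL tumour 1 and 8 were highest in CTRL tumour 2, whereas most members were lowest in SEVO tumour 1. Without CTRL tumour 2 the median was 0.92, and Gm15444, Gm44390 and Gm44486 passed the study's thresholds upwards, in a fit where 4.78% of all tested genes did and 1449 passed in either direction. Without CTRL tumour 1, Gm44454 passed downwards at a log2 fold change of -1.53, where 0.272% of all tested genes did.

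Replication-independent variants are also made outside S phase. Of 11 variant genes, 5 were tested and 0 passed the study's thresholds. Over all tested genes, 0.106% passed upwards and 0.939% downwards, the background for this list and the lists that follow. H1f0, the linker histone of resting cells, had 49.8, 53.9 and 42.5 CPM in CTRL and 36.8, 38.6 and 70.9 CPM in SEVO. H2afx, the H2A variant phosphorylated at DNA breaks, had 21.9, 25.1 and 32.1 CPM in CTRL and 6.90, 19.3 and 50.2 CPM in SEVO. H3f3b, which encodes H3.3, had 38, 21 and 25 reads in CTRL and 10, 14 and 43 in SEVO. In CPM, as in reads, SEVO tumour 1 was the lowest and SEVO tumour 3 the highest for each of the 3. The other variant genes had 4 (H1fx) to 75 reads (H2afy) over the 6 tumours, with 14 for H2afz and 28 for H3f3a.

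The genes that make and mature histone mRNA were thinly counted. Of 13, 8 were tested and 0 passed, with all 8 log2 fold changes below 0, a median of -0.73 and a lowest adjusted p of 0.74. CTRL tumour 1, with the highest receptor gene density and 49.0% of its reads on Gm10800 and Gm10801, was the highest tumour for 7 of the 8, and its part in these values was not tested. Slbp, whose protein binds the stem-loop, had 25.5, 3.76 and 16.1 CPM in CTRL and 5.75, 5.36 and 19.6 CPM in SEVO, and the groups overlapped. Npat, the coactivator of histone transcription, had 10.3 to 17.2 CPM over the 6 tumours. Of 9 histone chaperone genes, 5 were tested and 0 passed, with a median of -0.74, and CTRL tumour 1 was the highest for 4 of the 5. Asf1a, the most counted of them, had 142 to 247 CPM. Nasp, a carrier of H3 and H4, had 30, 18 and 19 reads in CTRL and 4, 13 and 19 in SEVO (log2 fold change -1.03, SE 0.57, adjusted p = 0.74).

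Of 15 S phase genes, 8 were tested and 1 passed the study's thresholds, downwards, as 0.939% of all tested genes did. Rrm1, the large subunit of ribonucleotide reductase, had 70.4, 25.1 and 37.9 CPM in CTRL and 13.8, 11.8 and 21.8 CPM in SEVO. All SEVO tumours lay below all CTRL tumours, as for 4.39% of all tested genes. The log2 fold change of Rrm1 was -1.48 (SE 0.48, unadjusted p = 0.0086, adjusted p = 0.74 in edgeR). It no longer passed without CTRL tumour 1 (-0.99, unadjusted p = 0.057 in edgeR), without SEVO tumour 1 (-1.30, 0.031) or SEVO tumour 2 (-1.20, 0.046), with library sizes alone (-1.13, 0.027), without the filter (-0.89, 0.11) or with DESeq2 (-1.08, 0.065). Pola1 (-1.57, SE 0.64, unadjusted p = 0.030) and Cdk2 (-0.97, SE 0.42, unadjusted p = 0.039) also had an unadjusted p under 0.05 in edgeR. So did 330 of all 7561 tested genes. CTRL tumour 1, which had the highest receptor gene density, was the highest for all 3. The summed level of the 15 genes was 693, 1076 and 692 CPM in CTRL and 963, 916 and 621 CPM in SEVO. In that sum SEVO tumour 3, the highest for the histones, was the lowest. The sum was carried mainly by 2 cyclin genes. Ccna2 (1922 reads) had 147, 551 and 272 CPM in CTRL and 507, 503 and 234 CPM in SEVO. Ccne2 (1133 reads) had 134, 297 and 164 CPM in CTRL and 278, 261 and 172 CPM in SEVO. No other gene of the list had more than 354 reads (Tk1). Within SEVO, Rrm1, Pola1 and Cdk2 were instead highest in tumour 3, so the order of the sum does not hold for each S phase gene.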

How the data were processed

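RNA-seq of 3 CTRL and 3 SEVO tumours was analysed from read counts per gene, deposited by the authors without normalization. Per the study's methods and processing notes, ribosomal reads were removed with SortMeRNA, reads were trimmed with Trimmomatic 0.36, aligned to GRCm38 (GENCODE M17) with STAR 2.6.0c and counted with HTSeq 0.9.1. Strand settings are not given in the sources used here. Identifiers were matched to GENCODE M21 (53706 of 53801).

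Counts were fitted over all genes with edgeR 4.0.16 in R 4.3.3 (TMM, filterByExpr, quasi-likelihood test, Benjamini-Hochberg adjustment), with SE from the F statistic and DESeq2 1.42.0 as an alternative. The fit was tested on simulated counts. The biological coefficient of variation was 0.398. The sources do not tie tumours of the same number to each other or name the mouse of each. Each library was taken as a separate tumour, and p-values set the group difference against the spread between these libraries. The methods describe a newly thawed cell stock per experimental group. If CTRL and SEVO cells came from different stocks, stock and priming cannot be told apart.

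The members, lists and rule for naming genes were chosen with earlier results of these data known. Named were the 3 members of each type highest per kb, any with p under 0.05, the 3 largest log2 fold changes in each direction and those of clusters 2 to 4 with 30 reads or more. Variant, processing, chaperone, S phase, cell type and receptor lists were fixed by name. Genes on the other strand were chosen after their values were seen. Protein sequences and a genome sequence were not used here.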

Additional observations from a re-analysis of the deposited data

How the results depend on the processing

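The count of members past p under 0.02 and 1.5-fold stayed at 0 with other size factors, without scaling, without the filter, with a background covariate, with a replicate block and with DESeq2, and was 0 to 1 when a tumour was left out (1 without SEVO tumour 3, Hist1h1d). Over all genes it was 79 and became 266 without the filter, 129 with the replicate block, 130 with the covariate (48 higher, 82 lower), 49 with DESeq2 (26 higher, 23 lower), 60 with library sizes alone (24 higher, 36 lower) and 13 to 1449 without single tumours (1449 without CTRL tumour 2, 479 without SEVO tumour 3). At an adjusted p under 0.05 the count of 0 became 1 with the replicate block and 0 to 31 without single tumours. The replicate block gave a member median of -0.22. The deviations of same-numbered tumours correlated at -0.40, 0.32 and 0.083. Deviations from a mean of 3 tumours depend on each other, so these values cannot decide whether the numbers pair the tumours.

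When a tumour was left out, the median log2 fold change of the members ran from -0.64 (without SEVO tumour 3) to 0.35 (without CTRL tumour 2), and it was 0.36 without the filter (all genes -0.38) and 0.21 with DESeq2 (all genes -0.55). With a tumour left out, the log2 ratio of summed CPM, 0.02, ran from -0.46 to 0.38. Library sizes alone moved the median of all genes to 0.22 and that of the members to 0.22. Of the opposite-strand genes, added after seeing the data, 0 to 3 passed when a tumour was left out, with medians of 0.016 to 0.92.

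Single members changed sign. Hist1h3c was 0.0047 with other size factors, 0.17 with library sizes alone, 0.00028 when Gm10800 and Gm10801 were kept out of the scaling, 0.35 without the filter and 0.20 with DESeq2. Hist1h2bg was 0.16 with library sizes alone, 0.28 without the filter and 0.12 with DESeq2, and Hist1h2bc 0.029, 0.22 and 0.056. Without the filter Hist1h4b was 0.17 and Hist4h4 0.079. With the replicate block Hist1h4c was -0.061 and Hist2h4 -0.19. When each tumour was left out in turn, the range was -0.22 to 0.55 for Hist1h1e, -0.30 to 0.89 for Hist1h1c, -0.88 to 0.30 for Hist1h2bg, -0.28 to 0.57 for Hist1h3c, -0.12 to 0.46 for Hist1h3e, -1.10 to 0.0065 for Hist1h4f, -0.40 to 0.98 for Hist1h4h, -1.17 to 0.95 for Hist1h4c, -0.90 to 0.51 for Hist2h4 and -1.32 to 0.082 for Hist4h4. The cause was not tested. Of the 67 members, 9 had 10 reads or more in every tumour, and 45 could not be tested in the filtered fit.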
